A study of Mus musculus with 12 samples.

Results

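The integrin, laminin and basement membrane genes are a set of 35 mouse genes for cell-surface integrin chains (13 alpha and 7 beta), laminin chains (10), the laminin-binding nidogens Nid1 and Nid2, the proteoglycans Hspg2 and Agrn, and the matrix protein Sparc. Members were taken by name, and a probe was assigned to a member when its transcript accession belonged to that gene. Of the 35 genes, 34 had a probe on the array design that carried the RA and DMSO samples and 29 could be tested there, among 16015 genes tested. On the design that carried the VC and ddH2O samples, 32 had a probe and 28 could be tested, among 14530 genes.

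The series holds 12 one-colour Agilent arrays of total RNA from J1 mouse embryonic stem cells, in 4 groups of 3, all kept with LIF at 1000 U/mL and collected after 24 h. RA samples received retinoic acid, labelled 1 μM, and their DMSO controls received 1 μL of DMSO. VC samples received vitamin C, labelled 50 μg with no volume, and their ddH2O controls received 1 μL of water. Retinoic acid is a ligand of nuclear receptors and drives differentiation of these cells, and vitamin C is a cofactor of iron-dependent dioxygenases, among them the prolyl hydroxylases that mature collagen.

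The labels name 1 cell line and do not tell if the 3 replicates of each group were cultured apart. The p-values measure how far these samples differ from each other, and that spread may be technical. All RA arrays were on 1 slide and all DMSO arrays on another, so slide and treatment cannot be told apart in that comparison. The 2 VC and ddH2O pairs that shared a slide are described with the VC values. Of non-control probes, 61.6% to 66.2% were well above background on RA and DMSO arrays and 67.1% to 70.4% on VC and ddH2O arrays, and no spot was saturated. In bulk RNA, fewer cells of a type and less RNA per cell cannot be told apart. Levels below are log2 intensities relative to the 75th percentile of the same array, so a level of 0 is that percentile. A level of 1 probe is not comparable with that of another. Differences are RA minus DMSO or VC minus ddH2O on this log2 scale, with the standard error (SE) of the fit and n = 3 arrays in each group. A gene was called higher or lower when its limma p-value, adjusted over all genes tested on that design, was under 0.05.

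Integrins are cell-surface receptors made of 1 alpha and 1 beta chain, and the pair decides which matrix protein is bound. Laminins are trimers of an alpha, a beta and a gamma chain that assemble into a sheet beneath epithelia, where nidogens and the proteoglycan perlecan join it to type IV collagen. Embryonic stem cells bind laminin through integrins that contain the chains encoded by Itga6 and Itgb1, and cells of the primitive and parietal endoderm lay down the first basement membranes of the mouse embryo. In F9 teratocarcinoma cells, retinoic acid is a classical means of obtaining endoderm-like cells that make laminin and type IV collagen.

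After retinoic acid, 17 of the 29 tested members rose and 7 fell, while 35.9% of all genes tested rose and 42.1% fell. Changes of at least 2-fold were counted in 8 members that rose and 2 that fell, beside 17.4% and 15.0% of all genes. The median difference of the 29 members was 0.46, beside −0.07 for all genes tested. The RA and DMSO arrays did not overlap for any of the 24 called members, nor for 99.4% of all genes called, and 81.7% of all genes tested had arrays that did not overlap. Of these, 15 were called in the same direction under every alternative that gave a value: Itga3, Itga4, Itga5, Itga6, Itga8, Itga11, Itgb5, Itgb7, Lama1, Lama2, Lama3, Lama4, Lamb1, Lamc1 and Nid1.

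The counts depend on the scale. Setting each array to its median in place of its 75th percentile moved the median difference of all genes by −0.34, and setting it to its spike-in controls moved it by −0.45. With median scaling 11 members rose and 10 fell, among 3974 genes that rose and 8795 that fell. With spike-in scaling 8 members rose and 8 fell, among 2712 and 7628 genes. On the main scale 5742 genes rose and 6745 fell. The smaller rises of the set are those that the scale decides, and the rises of Itga11, Itga4, Itga3, Itga8, Lama4, Lama2, Lama1 and Lamb1 were called under all 3 scales. The size of the changes in dim members depends on how background is handled. RA arrays were dimmer, with a log2 75th percentile of 8.17 to 8.60, against 9.25 to 9.26 on DMSO arrays. The dimmest signal above background averaged −5.34 on RA arrays and −6.08 on DMSO arrays on the main scale. A probe at background on all arrays can so read higher with RA, as the probes of Itgb6 did, at 0.86 and 0.72. Normexp background correction was fitted on the foreground and local background of each array, and an offset of 50 was added before the log. The correction and the offset changed together, so their parts cannot be told apart. In this setting Itga11 was 3.83-fold higher, Lama4 3.15-fold, Itga4 2.17-fold, Itga8 2.16-fold and Lama2 2.11-fold higher, and Itgb7 was 12.1-fold lower. All of these were called, and each fold is smaller by over 1.5 times than the one given with the gene below. The bounds given below for genes at background were computed on the main scale.

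**Figure D1:**
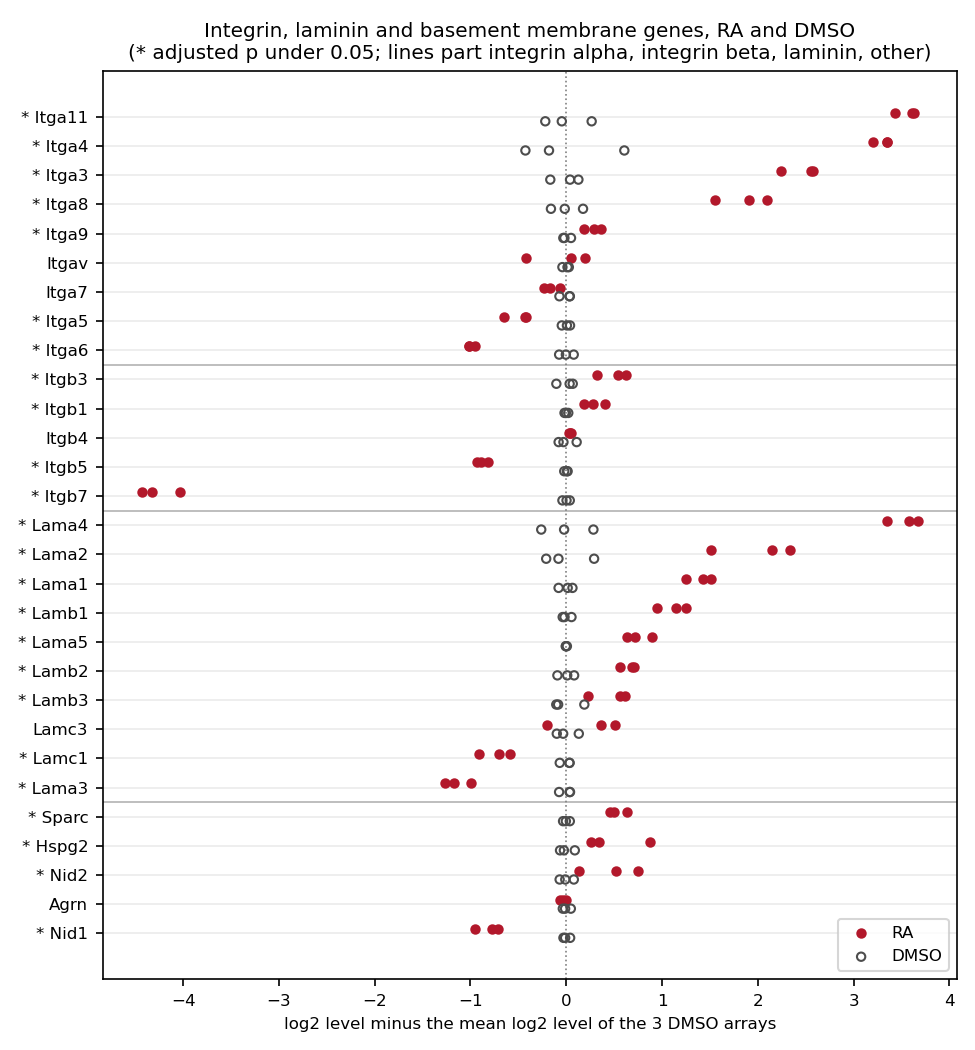
Each row is 1 of the 29 members tested in RA against DMSO, with 3 filled points for RA arrays and 3 open points for DMSO arrays, plotted as the log2 level minus the mean of the DMSO arrays. Itga11, Lama4 and Itga4 lie farthest to the right, at 3.56, 3.53 and 3.30, and Itgb7 lies farthest to the left, at −4.26.

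Among the integrin alpha chains, 5 of 9 tested rose and 2 fell, and the collagen receptor chain Itga11 had the largest rise of the set on the main scale, while Itga3 led with normexp correction, at 2.02 beside 1.94 for Itga11. Itga11 measured −1.54, −1.52 and −1.72 on the RA arrays, against −4.89, −5.20 and −5.37 on the DMSO arrays. Every RA array was above every DMSO array, and the gene was 11.8-fold higher with RA (difference 3.56 ± 0.14 SE, limma adjusted p = 2.32e-06). Itga4, whose product pairs with the Itgb1 or Itgb7 product and binds fibronectin and Vcam1, measured −4.01, −3.86 and −3.86 on the RA arrays, against −7.64, −6.60 and −7.39 on the DMSO arrays. Its probe was well above background on 3 RA arrays and on none of the DMSO arrays, so the DMSO values are bounds and on this scale the gene was at least 4.51-fold higher with RA (limma adjusted p = 5.01e-05). Itga4 entered the test through the RA arrays alone.

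Itga3, a laminin receptor chain, measured 1.20, 1.22 and 0.89 on the RA arrays, against −1.31, −1.52 and −1.22 on the DMSO arrays. The gene was 5.48-fold higher with RA (difference 2.45 ± 0.12 SE, limma adjusted p = 7.14e-06). The chain encoded by Itga8, which binds nephronectin, had levels of −2.56, −2.37 and −2.91 on the RA arrays, against −4.48, −4.29 and −4.63 on the DMSO arrays. Its arrays parted by group, with a 3.61-fold rise (difference 1.85 ± 0.16 SE, limma adjusted p = 7.2e-05). Itga9, a tenascin receptor chain, measured 0.71, 0.82 and 0.89 on the RA arrays, against 0.58, 0.51 and 0.50 on the DMSO arrays, a rise of 0.28 ± 0.07 (SE, limma adjusted p = 0.00997) that became −0.06 on the median scale and −0.17 on the spike-in scale, neither of them called.

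The alpha chains that fell were the laminin receptor chain Itga6 and the fibronectin receptor chain Itga5. Itga6 measured 4.17, 4.17 and 4.24 on the RA arrays, against 5.27, 5.12 and 5.19 on the DMSO arrays. All RA arrays lay below the DMSO arrays (difference −0.996 ± 0.07 SE, limma adjusted p = 2.2e-05). Itga5 measured −0.09, −0.08 and −0.31 on the RA arrays, against 0.37, 0.29 and 0.34 on the DMSO arrays. RA and DMSO arrays again did not overlap (difference −0.50 ± 0.08 SE, limma adjusted p = 0.00162). Its ligand gene Fn1, which encodes fibronectin, also fell, with a difference of −1.20 ± 0.06 (SE, limma adjusted p = 5.57e-06). The laminin receptor chain Itga7 had a difference of −0.16 ± 0.07 (SE, limma adjusted p = 0.0843) and Itgav, the common chain of the vitronectin receptors, one of −0.06 ± 0.16 (SE, limma adjusted p = 0.751). For both genes the RA and DMSO arrays overlapped on the main scale. Itga7 was called lower with median and spike-in scaling, at −0.50 and −0.60.

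Of the 5 integrin beta chains tested, 2 rose and 2 fell, beside 35.9% and 42.1% of all genes tested. With median scaling 0 rose and 3 fell, and with spike-in scaling 0 rose and 2 fell. Itgb7 had the largest change of all members. Itgb7, which pairs with the Itga4 chain on lymphocytes, measured −2.12, −2.23 and −1.84 on the RA arrays, against 2.21, 2.24 and 2.16 on the DMSO arrays. The gene was 19.2-fold lower with RA (difference −4.26 ± 0.11 SE, limma adjusted p = 4.82e-07). Itgb7 and Itga4, whose products can form 1 receptor, thus moved in opposite directions. Itgb5, a partner of the Itgav chain, measured 2.32, 2.28 and 2.39 on the RA arrays, against 3.23, 3.22 and 3.19 on the DMSO arrays. It was 1.84-fold lower with RA (difference −0.88 ± 0.06 SE, limma adjusted p = 2.42e-05).

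Itgb1, the beta chain shared by most laminin, collagen and fibronectin receptors, measured 1.81, 1.90 and 2.02 on the RA arrays, against 1.60, 1.62 and 1.64 on the DMSO arrays. The difference was 0.29 ± 0.07 (SE, limma adjusted p = 0.0107), and its other probe gave 0.66. With median scaling Itgb1 was at −0.05 and with spike-in scaling at −0.16, neither called, so the direction in this probe depends on the scale. The other probe stayed above 0, at 0.32 with median and 0.21 with spike-in scaling. Itgb3, a partner of the Itgav and Itga2b chains, measured −1.34, −1.12 and −1.04 on the RA arrays, against −1.63, −1.77 and −1.60 on the DMSO arrays. Its rise of 0.50 ± 0.10 (SE, limma adjusted p = 0.00356) was 0.16 and 0.05 with median and spike-in scaling and not called there. Itgb4, the beta chain of hemidesmosomes, had a difference of 0.04 ± 0.07 (SE, limma adjusted p = 0.618) and overlapping arrays on the main scale. With median scaling Itgb4 was at −0.30 and called lower.

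A further 5 members had a probe and too little signal to be tested. The platelet integrin chain Itga2b was well above background on 2 of 3 RA arrays and on no DMSO array, with levels of −5.44, −4.58 and −4.18 on the RA arrays, against −5.80, −6.18 and −6.44 on the DMSO arrays. The collagen receptor chain Itga1 was well above background on 1 of 3 RA arrays and on no DMSO array. No fold is given for either, since their RA levels are in part background. No RA or DMSO array showed Itga2, Itgb6 or Itgb8 well above background, and Itga10 was not measured on this design.

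The promoters of Itga11 and Itgb7, the members with the largest rise and the largest fall on the main scale, are shown to set their sequences side by side. Both are RefSeq promoters of build GRCm38.p6, printed 5′ to 3′ on the strand of the gene, with 300 bases that run from upstream of the transcription start to just past it. Itga11 lies at chr9:62677605-62677904, plus strand, and Itgb7 at chr15:102231886-102232185, minus strand. Capitals mark a match to a retinoic acid receptor half-site, here GGGTCA read on the opposite strand, at −200 bases from the start in Itga11 and at −146 in Itgb7.
Itga11: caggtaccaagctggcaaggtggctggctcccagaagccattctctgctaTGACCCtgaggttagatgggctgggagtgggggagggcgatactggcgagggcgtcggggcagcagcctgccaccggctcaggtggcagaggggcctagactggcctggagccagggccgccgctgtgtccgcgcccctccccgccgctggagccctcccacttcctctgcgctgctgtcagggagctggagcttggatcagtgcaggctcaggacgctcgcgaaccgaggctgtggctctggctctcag
Itgb7: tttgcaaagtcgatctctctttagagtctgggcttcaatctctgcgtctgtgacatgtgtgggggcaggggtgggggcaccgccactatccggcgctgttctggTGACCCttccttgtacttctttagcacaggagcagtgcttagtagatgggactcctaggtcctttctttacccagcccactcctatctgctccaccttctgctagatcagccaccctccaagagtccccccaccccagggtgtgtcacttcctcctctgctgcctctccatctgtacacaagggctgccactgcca
The gene that rose and the gene that fell thus carry the same half-site on the same strand. The search on both strands took the half-site AGGTCA, its variant GGGTCA, and the further variants that read AGTTCA or, last, GGTTCA. One of the 4 was present in 12 of 29 member promoters, which belong to 25 of the 35 genes, and in 43.7% of all 32851 promoters of this length. No member promoter held 2 half-sites in direct repeat with 5 or 2 bases between them, and 0.0974% and 0.268% of all promoters did. A match describes these letters in this window only.

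Laminin chains included 7 that rose and 2 that fell, of 10 tested, beside 35.9% and 42.1% of all genes tested. With median scaling 6 rose and 2 fell, and with spike-in scaling 4 rose and 2 fell. The alpha chains spanned most of the range. Lama4, the alpha chain of vessel walls, measured −1.95, −1.85 and −2.18 on the RA arrays, against −5.24, −5.55 and −5.78 on the DMSO arrays. RA arrays were far above DMSO arrays, an 11.6-fold rise (difference 3.53 ± 0.16 SE, limma adjusted p = 4.47e-06). Lama2, the alpha chain of muscle and Schwann cell laminin, measured −3.14, −3.33 and −3.97 on the RA arrays, against −5.69, −5.19 and −5.56 on the DMSO arrays. Its probe was well above background on 2 of the 3 DMSO arrays, and the gene was 4-fold higher with RA (difference 2.00 ± 0.24 SE, limma adjusted p = 0.000365).

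Lama1 and Lamb1 encode chains of the first laminin made in the embryo. Lama1 measured 4.90, 4.98 and 4.72 on the RA arrays, against 3.53, 3.48 and 3.39 on the DMSO arrays. It was 2.63-fold higher with RA (difference 1.40 ± 0.09 SE, limma adjusted p = 1.86e-05). Lamb1 measured 5.11, 5.21 and 4.91 on the RA arrays, against 4.01, 3.94 and 3.92 on the DMSO arrays. It was 2.17-fold higher with RA (difference 1.12 ± 0.09 SE, limma adjusted p = 5.7e-05). Lamc1, the gamma chain that joins both in that trimer, moved the other way, with levels of 4.47, 4.58 and 4.25 on the RA arrays, against 5.20, 5.10 and 5.20 on the DMSO arrays. RA arrays were all below DMSO arrays for Lamc1 (difference −0.73 ± 0.10 SE, limma adjusted p = 0.000549). A trimer holds 1 chain of each kind, so within 1 complex the alpha and beta transcripts rose while the gamma transcript fell.

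Lama5, the alpha chain of the laminin used to grow embryonic stem cells, measured 5.24, 5.07 and 4.98 on the RA arrays, against 4.35, 4.36 and 4.35 on the DMSO arrays. It rose by 0.75 ± 0.08 (SE, limma adjusted p = 0.000208). Lamb2, a beta chain of glomerular and synaptic laminins, measured 0.65, 0.53 and 0.67 on the RA arrays, against −0.13, −0.02 and 0.05 on the DMSO arrays (difference 0.65 ± 0.08 SE, limma adjusted p = 0.000293). With spike-in scaling Lama5 was at 0.30 and Lamb2 at 0.20, neither called.

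Lama3 and Lamb3 encode chains of the epidermal laminin and also differed in direction. Lama3 measured −0.47, −0.65 and −0.74 on the RA arrays, against 0.56, 0.45 and 0.57 on the DMSO arrays. It was 2.21-fold lower with RA (difference −1.14 ± 0.09 SE, limma adjusted p = 4.56e-05), and its other probe gave −2.48, so that the mean of both was 3.51-fold lower. Lamb3 measured −3.72, −3.39 and −3.34 on the RA arrays, against −4.03, −4.05 and −3.76 on the DMSO arrays, a rise of 0.46 ± 0.13 (SE, limma adjusted p = 0.018) with arrays of the 2 groups close to each other. The rise of Lamb3 was called under 10 of 17 alternatives. It was at 0.12 with median scaling, 0.02 with spike-in scaling and 0.14 with quantile normalization, and not called under these. Other alternatives without a call included leaving out RA replicate 2, DMSO replicate 1 or DMSO replicate 2 (limma adjusted p = 0.0509 to 0.0573). Lamc3, a gamma chain, had a difference of 0.22 ± 0.19 (SE, limma adjusted p = 0.319) with overlapping arrays.

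Of the 5 other basement membrane members, 3 rose and 1 fell, beside 35.9% and 42.1% of all genes tested. With median scaling 1 rose and 2 fell, and with spike-in scaling 0 rose and 1 fell. Nid1, which links laminin to type IV collagen, measured 1.86, 1.79 and 1.61 on the RA arrays, against 2.54, 2.56 and 2.61 on the DMSO arrays. RA arrays were below DMSO arrays (difference −0.82 ± 0.08 SE, limma adjusted p = 0.000138), and its 2 other probes gave −1.21 and −1.23. Nid2, its paralog with the same role, measured 4.05, 4.28 and 3.66 on the RA arrays, against 3.61, 3.52 and 3.46 on the DMSO arrays. The rise of Nid2 was 0.47 ± 0.16 (SE, limma adjusted p = 0.0323). It was not called with median or spike-in scaling, with normexp background correction, or without RA replicate 1, RA replicate 2 or any 1 of the DMSO replicates (limma adjusted p = 0.0545 to 0.0858 without 1 array).

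Sparc, a secreted collagen-binding protein abundant in parietal endoderm, measured 7.37, 7.42 and 7.55 on the RA arrays, against 6.95, 6.91 and 6.88 on the DMSO arrays. It rose by 0.53 ± 0.07 (SE, limma adjusted p = 0.000499) and its other probe gave 0.82, while spike-in scaling gave 0.08 with no call. Hspg2, which encodes perlecan, measured 3.66, 3.74 and 4.28 on the RA arrays, against 3.49, 3.33 and 3.37 on the DMSO arrays. RA replicate 3 was the highest of its arrays, and the difference of 0.49 ± 0.17 (SE, limma adjusted p = 0.0337) was not called with median or spike-in scaling or without any 1 of the DMSO replicates (limma adjusted p = 0.0549 to 0.0865). Its other probe gave 0.11 and was not called. Agrn, which encodes the proteoglycan agrin, had a difference of −0.04 ± 0.06 (SE, limma adjusted p = 0.573) and overlapping arrays on the main scale. With median scaling it was at −0.38 and called lower. Quantile normalization called it higher, so the direction of Agrn depends on the scale.

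The promoters of Lamb1, which rose, and Nid1, which fell, are shown as examples that hold general promoter motifs. Lamb1 lies at chr12:31265043-31265342, plus strand, and Nid1 at chr13:13437352-13437651, plus strand, in the same source, window and orientation as above. Capitals mark the GC box GGGCGG and the CCAAT motif on either strand. In Lamb1 the GC box stands at −84 and −75 on the opposite strand and CCAAT at −187, and in Nid1 the GC box stands at −67 and CCAAT at −91 on the opposite strand.
Lamb1: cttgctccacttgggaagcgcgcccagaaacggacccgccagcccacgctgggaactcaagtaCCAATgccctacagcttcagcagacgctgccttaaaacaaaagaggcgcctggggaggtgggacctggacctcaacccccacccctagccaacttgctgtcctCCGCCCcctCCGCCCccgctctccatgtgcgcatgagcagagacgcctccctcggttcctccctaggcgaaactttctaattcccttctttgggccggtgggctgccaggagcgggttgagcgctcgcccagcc
Nid1: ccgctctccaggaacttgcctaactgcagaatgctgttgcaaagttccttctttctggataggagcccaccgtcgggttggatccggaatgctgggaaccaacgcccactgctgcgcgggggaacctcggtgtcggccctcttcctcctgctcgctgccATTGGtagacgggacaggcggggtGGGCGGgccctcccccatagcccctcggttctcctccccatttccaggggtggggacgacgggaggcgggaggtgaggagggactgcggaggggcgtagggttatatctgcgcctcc
Both genes hold both motifs and moved in opposite directions. GGGCGG was present in 15 of the 29 member promoters and in 35.7% of all promoters, CCAAT in 4 of 29 (Itga3, Itgb8, Lamb1 and Nid1) and in 37.4%, and TATAAA in 0 of 29 and in 13.6%.

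**Figure D2:**
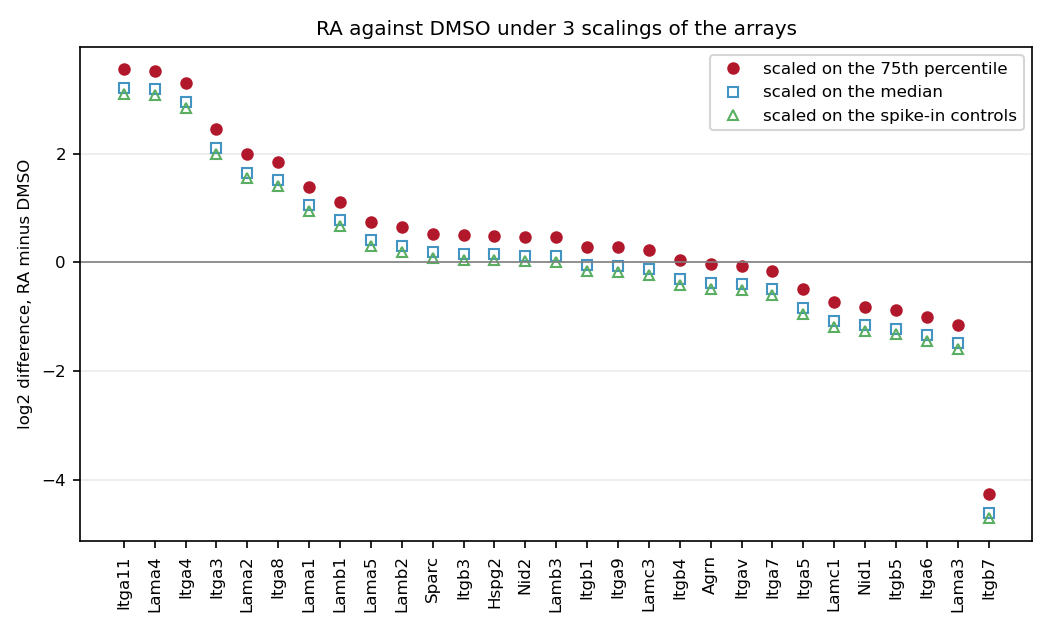
For each tested member the RA minus DMSO log2 difference is plotted under 3 scalings of the arrays: the 75th percentile (filled circles), the median (open squares) and the spike-in controls (open triangles). Itga9 and Itgb1 lie above 0 with the 75th percentile and below 0 with the other 2 scalings, whereas Itga11 and Itgb7 keep their side under all 3.

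Genes that work with the set were taken from lists chosen with earlier results of these data known. Their RA counts stand beside all genes tested, of which 35.9% rose and 42.1% fell. Of 20 other basement membrane genes tested, 19 rose and 1 fell with RA, with a median difference of 1.81. With median scaling 16 rose and 1 fell, and with spike-in scaling 14 rose and 1 fell. The largest rises were in Smoc2, a secreted matrix protein related to Sparc, at 7.87 ± 0.14 (SE, limma adjusted p = 1.65e-07), and in the fibulin gene Efemp1, at 6.83 ± 0.11 (SE, limma adjusted p = 1.24e-07). Smoc2 measured 2.63, 2.79 and 2.66 on the RA arrays, against −5.05, −4.99 and −5.49 on the DMSO arrays. The type IV collagen chains Col4a1 and Col4a2, the network that nidogens join to laminin, differed by 1.85 ± 0.17 (SE, limma adjusted p = 9.73e-05) and by 2.37 ± 0.12 (SE, limma adjusted p = 6.56e-06). The 1 gene that fell was Fbln5, a fibulin of elastic fibres. Its probe was not well above background on any RA array, which gives at least 2.10-fold less with RA (limma adjusted p = 5.82e-05). Fbln5 entered the test through the DMSO arrays alone, and with normexp correction it was at 0.25 and called higher. That setting also adds an offset of 50 before the log, and the RA arrays were dimmer. A probe at background can therefore read higher with RA there, and what turned the sign of Fbln5 was not tested. Smoc2 and Efemp1 were at 5.56 and 4.47 with that correction, both called.

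Of 11 integrin ligands outside the basement membrane, 8 rose and 2 fell, with a median of 2.34. Thrombospondin gene Thbs1 measured 1.02, 1.35 and 0.75 on the RA arrays, against −5.21, −5.55 and −4.73 on the DMSO arrays, and the difference was 6.21 ± 0.25 (SE, limma adjusted p = 2.67e-06), or 4.02 with normexp correction. Ecm1, a secreted glycoprotein that binds perlecan, differed by 5.75 ± 0.10 (SE, limma adjusted p = 1.66e-07). The 2 that fell were Fn1, given above, and the osteopontin gene Spp1, at −1.67 ± 0.08 (SE, limma adjusted p = 5.72e-06).

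Genes of the integrin adhesion complex, for proteins beneath integrins and for surface partners such as Cd9, moved both ways. Of 22 adhesion complex genes tested, 9 rose and 6 fell with RA, with a median of 0.02. Over all genes tested, 35.9% rose and 42.1% fell. With median scaling 7 of the 22 rose and 10 fell, among 3974 and 8795 of all 16015 genes. Parva, a parvin that binds integrin-linked kinase, differed by 3.099 ± 0.08 (SE, limma adjusted p = 5.88e-07), while its paralog Parvb differed by −1.42 ± 0.06 (SE, limma adjusted p = 2.83e-06). Zyx, which encodes zyxin of focal adhesions and stress fibres, rose by 2.25 ± 0.10 (SE, limma adjusted p = 4.02e-06). Cd9, a tetraspanin that associates with integrins, fell, at −1.35 ± 0.08 (SE, limma adjusted p = 1.34e-05). Among 15 laminin receptors other than integrins, including the dystroglycan complex, 6 rose and 3 fell, and with median scaling 4 rose and 4 fell. The glypican gene Gpc3 was highest at 2.95 ± 0.13 (SE, limma adjusted p = 4.8e-06), followed by the sarcoglycan gene Sgce at 2.47. The dystrophin gene Dmd, at −0.999, and Pomt1, which glycosylates dystroglycan, at −0.56, fell. With normexp correction Dmd was at −0.16 and not called (limma adjusted p = 0.109), and Parvb was at −0.82.

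Markers of cell types moved in the same arrays. All 8 embryonic stem cell markers fell with RA, and their summed level relative to the 75th percentile was 80.4 to 90.3 on RA arrays and 550 to 567 on DMSO arrays. Sums here and for VC add unlogged levels, so the brightest genes weigh most. Among these 8 the brightest was Dppa5a, with a mean log2 level of 6.26 on RA and 8.39 on DMSO arrays. Its difference was −2.13, in a list that ran from −6.72 to −2.07 with a median of −4.92. All 8 primitive endoderm markers rose (7.03 to 7.86 on RA arrays, 1.49 to 1.63 on DMSO arrays), as did all 6 parietal endoderm markers (14.6 to 15.8 on RA arrays, 1.84 to 1.96 on DMSO arrays). Of 8 fibroblast markers, 5 rose, Thy1 fell, and Postn and Lum were below the filter (68.7 to 78.1 on RA arrays, 2.50 to 2.67 on DMSO arrays). Of 7 endothelium and blood markers, 4 were tested, of which 2 rose and 2 fell (0.649 to 0.741 on RA arrays, 1.03 to 1.04 on DMSO arrays). These directions were also called with median and spike-in scaling, except for Cd34. The part of these cell types in the results above was not tested.

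Vitamin C moved few members of the set, and each by less than 1.5-fold. Of 28 tested members, 1 rose and 5 fell, while 6.59% of all genes tested rose and 10.6% fell. The median difference of the members was −0.11, beside −0.00 for all genes. No called member had overlapping VC and ddH2O arrays, as was so for 99.7% of all genes called, and 41.9% of all genes tested had arrays that did not overlap. None of the 6 was called under every alternative.

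**Figure D3:**
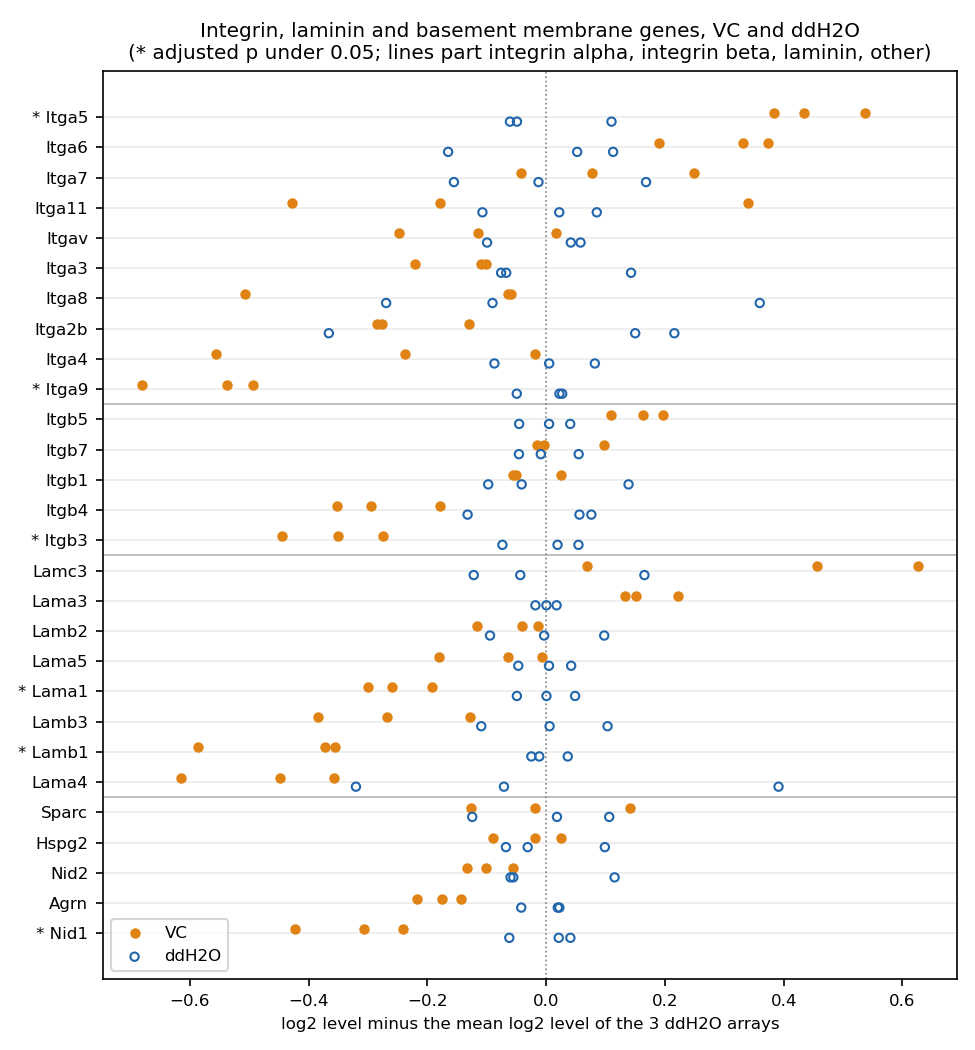
Each row is 1 of the 28 members tested in VC against ddH2O, with 3 filled points for VC arrays and 3 open points for ddH2O arrays, plotted as the log2 level minus the mean of the ddH2O arrays. The VC points of Itga5 lie right of its ddH2O points, and those of Itga9, Itgb3, Lama1, Lamb1 and Nid1 lie left of theirs.

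The fibronectin receptor chain Itga5 was the member that rose, with levels of 0.14, −0.01 and 0.04 on the VC arrays, against −0.46, −0.44 and −0.28 on the ddH2O arrays. It was 1.37-fold higher with VC (difference 0.45 ± 0.07 SE, limma adjusted p = 0.0144). Fn1, its ligand, differed by 0.31 ± 0.08 (SE, limma adjusted p = 0.0495). The tenascin receptor chain Itga9 had the largest fall, with levels of −0.31, −0.26 and −0.45 on the VC arrays, against 0.18, 0.25 and 0.26 on the ddH2O arrays. All VC arrays were below all ddH2O arrays, a 1.49-fold difference (difference −0.57 ± 0.07 SE, limma adjusted p = 0.00806), and its other probe gave −0.47. Itgb3, a partner of the Itgav chain, measured −1.98, −1.88 and −1.81 on the VC arrays, against −1.48, −1.61 and −1.51 on the ddH2O arrays. The VC arrays were again the lower ones (difference −0.36 ± 0.07 SE, limma adjusted p = 0.0215).

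The laminin chains that fell were Lamb1 and Lama1, 2 of the 7 that rose with RA. Lamb1 measured 1.59, 1.60 and 1.37 on the VC arrays, against 1.95, 2.00 and 1.93 on the ddH2O arrays (difference −0.44 ± 0.08 SE, limma adjusted p = 0.0174). Lama1 measured −1.21, −1.32 and −1.28 on the VC arrays, against −1.02, −1.07 and −0.97 on the ddH2O arrays (difference −0.25 ± 0.06 SE, limma adjusted p = 0.0338). All VC arrays were below all ddH2O arrays for both. Nid1 measured 2.31, 2.38 and 2.20 on the VC arrays, against 2.64, 2.66 and 2.56 on the ddH2O arrays. It was lower on every VC array (difference −0.32 ± 0.07 SE, limma adjusted p = 0.0263). Sparc had a difference of −0.00 in its brightest probe, and its other probe gave −0.34 (limma adjusted p over probes = 0.0225), so the 2 probes of Sparc disagree. Itgb4 was at −0.28 ± 0.08 (SE, limma adjusted p = 0.0623), and its other probe gave −0.34 (limma adjusted p over probes = 0.038).

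The other 22 tested members were not called, with limma adjusted p from 0.062 for Agrn upward and differences from −0.47 for Lama4 to 0.38 for Lamc3. They include Itga6 at 0.30 ± 0.09, Itgb1 at −0.03 ± 0.08, Lama5 at −0.08 ± 0.06 and Hspg2 at −0.03 ± 0.07 (SE). Itga1, Itga2 and Itgb6 were not well above background on any VC or ddH2O array, Lama2 was above it on 1 VC array, and Itga10, Itgb8 and Lamc1 were not measured on this design.

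The VC calls rest on few arrays. VC replicates 1 and 2 and ddH2O replicates 2 and 3 shared a slide. Within it the differences were 0.43 for Itga5, −0.54 for Itga9, −0.37 for Itgb3, −0.37 for Lamb1, −0.25 for Lama1 and −0.26 for Nid1. Between the other 2 arrays, on separate slides, they were 0.50, −0.63, −0.33, −0.57, −0.26 and −0.44 in the same order. The VC and ddH2O arrays did not overlap for these members, so the sign was bound to hold in any such split. With slide as a block no gene was called by limma, although 3889 genes had an unadjusted p under 0.05. Without VC replicate 1, ddH2O replicate 1 or ddH2O replicate 2 no member was called higher, and 2, 2 and 1 were called lower. With spike-in scaling 1 member was called higher and 0 lower, among 415 genes higher and 162 lower, and with median scaling the genes called were 1511 higher and 1157 lower, against 958 and 1533 on the main scale.

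Among the wider lists in VC samples, 3 of 22 adhesion complex genes rose and 3 fell. Over all genes tested, 6.59% rose and 10.6% fell. Tns3, a tensin, was at 0.39 ± 0.06 (SE, limma adjusted p = 0.0153) and Parvb at 0.38, while Lims2, a partner of integrin-linked kinase, was at −0.48 ± 0.11 (SE, limma adjusted p = 0.0373) and the integrin-associated Cd47 at −0.40. Of 15 other basement membrane genes 0 rose and 3 fell, led by Efemp1 at −0.61 ± 0.11 (SE, limma adjusted p = 0.0194) and Fbln2 at −0.33. Of 11 other integrin ligands 1 rose, Fn1, which was not called with normexp correction (limma adjusted p = 0.0566), and 1 fell, Ecm1 at −0.38 ± 0.06 (SE, limma adjusted p = 0.0138), whose other probe gave −0.08. Among the laminin receptors other than integrins, Sgce fell, at −0.40. With spike-in scaling, 2 of the adhesion complex genes were called higher and none of the other genes of these 4 lists was called.

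Of the cell type markers in VC samples, 3 of 8 embryonic stem cell markers rose (summed level 558 to 608 on VC arrays, 530 to 607 on ddH2O arrays) and 1 of 7 primitive endoderm markers fell (0.678 to 0.716 on VC arrays, 0.689 to 0.739 on ddH2O arrays). Of 6 parietal endoderm markers 4 fell (6.05 to 6.69 on VC arrays, 8.30 to 8.80 on ddH2O arrays), and none of these was called with spike-in scaling. Of 6 fibroblast markers 1 rose and 2 fell (13.9 to 14.2 on VC arrays, 12.2 to 13.4 on ddH2O arrays), and of 3 endothelium and blood markers Cd34 fell (1.12 to 1.19 on VC arrays, 1.39 to 1.52 on ddH2O arrays). Their part in the member results was not tested.

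**Figure D4:**
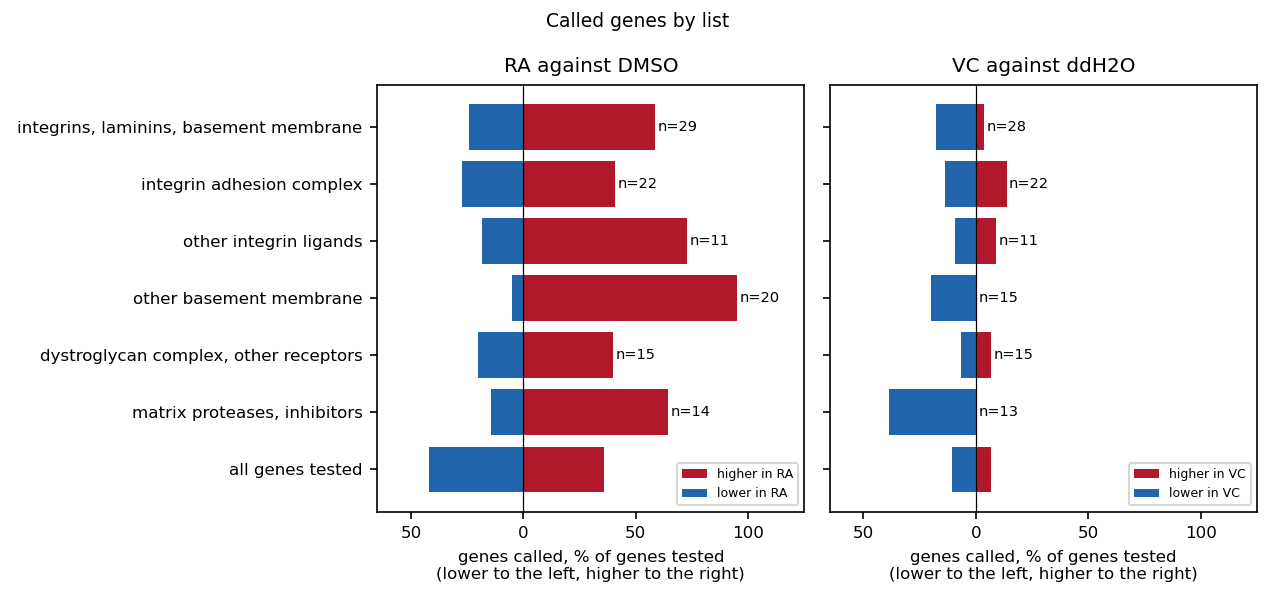
Bars give the percentage of tested genes called higher (to the right) and lower (to the left) in the member set, in 5 lists of related genes and in all genes tested, for RA against DMSO and for VC against ddH2O, with the number tested beside each list. With arrays scaled on the 75th percentile, in the RA panel 19 of 20 other basement membrane genes point right, and in the VC panel 5 of 13 matrix protease and inhibitor genes point left, none of which was called with spike-in scaling.

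The RA and VC comparisons share no samples and were made on different array designs, so levels cannot be set across them. Of 27 members tested in both, Itga9, Itgb3, Lama1 and Lamb1 rose with RA and fell with VC. Itga5 fell with RA and rose with VC, and Nid1 fell with both. Of the rest, 12 rose and 4 fell with RA without a call in VC samples, and 5 were called in neither. Of all 13727 genes tested in both, 5.68% rose with RA and fell with VC, 4.01% fell with RA and rose with VC, 3.18% fell with both, 25.7% rose and 38.3% fell with RA alone, and 18.5% were called in neither. For Itga9 and Itgb3 the RA rise is among those lost with median and spike-in scaling, as given above, and with spike-in scaling none of the VC falls was called, so Itga5 is the 1 member of these 6 with a call in both comparisons under all 3 scalings. For Lama1 the differences were 1.40 ± 0.09 with RA and −0.25 ± 0.06 with VC, and for Lamb1 1.12 ± 0.09 with RA and −0.44 ± 0.08 with VC (SE). Whether a response to RA and a response to VC are related was not tested.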

How the data were processed

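Total RNA of 12 samples was measured on 2 Agilent one-colour designs. The members and the gene lists were chosen with earlier results of these data known. Each deposited scanner file gives spot intensity values that Agilent Feature Extraction (version 10.7.3.1 per the file headers, 10.7 per the submitters' processing notes) had background-subtracted. Tables of log2 values for the whole series were also deposited. They served as an alternative, with their normalization not given in the sources used here.

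From each array's log2 intensities the 75th percentile over non-control spots was subtracted. Outlier spots were left out and spots of a probe averaged. Accessions were matched without versions to a RefSeq table (GRCm38.p6, used for names and promoters). They named 27235 of 55681 probes (20660 genes) on the RA and DMSO design and 27479 of 41174 (18749 genes) on the VC and ddH2O design. A gene is its brightest probe, tested if well above background on at least 3 of 6 arrays. Where a group was below background, its bound is a mean over arrays of whichever was higher, the probe's own value or the dimmest signal that counted as above background. Each design was fitted alone with limma 3.58.1 in R 4.3.3 (lmFit, eBayes, Benjamini-Hochberg over all genes tested). Tested on simulated data, the fit missed more of the 1.5-fold than of the larger changes, and on the RA design the share of false calls lay above the threshold. Every member is named. Of each wider list, up to 2 called genes in each direction with the largest changes are named. One result of the list of laminin receptors is not reported here. Col4a1, Col4a2, Vtn and the single marker genes were picked after their values were seen. Alternatives were quantile, median and spike-in scaling, normexp correction (offset 50), the authors' values, other filters and probe rules, trend and robust eBayes, replicate and slide blocks, and leaving out each array.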

Additional observations from a re-analysis of the deposited data

How the results depend on the processing

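The 15 members named in the report as called under every alternative kept their RA calls, with Itga4 and Lama2 giving no value under some because a dim group left them below the filter. In RA against DMSO, spike-in scaling called 2712 genes higher, and median and spike-in scaling called 11 and 8 members higher. The median member difference was 0.32 with quantile normalization, 0.12 with median scaling, 0.015 with spike-in scaling, 0.35 in the authors' series values and 0.29 over members above background on all 6 arrays. With 1 array left out it was 0.27 to 0.43, with 14 to 16 members higher and 7 lower, and 5153 to 5595 genes higher and 5933 to 6929 lower. Signs turned as follows. Median scaling gave Itga9 −0.063, Itgb1 −0.053, Itgb4 −0.30 and Lamc3 −0.12. Spike-in scaling gave −0.17, −0.16, −0.41 and −0.23 for the same genes. Quantile normalization gave Agrn 0.32, Itgb4 −0.0061 and Lamc3 −0.11, and the authors' series values 0.35, −0.0064 and −0.11. Itgav was 0.082 with normexp, 0.066 as the mean of its probes and −0.18 to 0.12 with 1 array left out, where Itgb4 was −0.00052 to 0.094.

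In VC against ddH2O, genes called higher numbered 1511 with median scaling, 415 with spike-in scaling, 449 with normexp, 298 with no filter, 1567 with trend and robust eBayes and 264 with the replicate block. Genes called lower numbered 162 with spike-in scaling, 681 with normexp, 706 with no filter and 672 with the replicate block. The slide block, and the same arrays within the shared slide (chosen after seeing the data), gave 0 genes and 0 members either way. Slide as a random block gave 1046 and 1641 genes. Members called higher numbered 2 with median scaling or trend and 0 with the replicate block, and members called lower 0 with spike-in scaling, 3 with normexp, 2 with no filter and 3 with the replicate block. With 1 array left out there were 0 to 2 members higher, 1 to 4 lower, 77 to 770 genes higher and 373 to 1237 lower, and a median member difference of −0.14 to −0.088. That median was 0.079 with spike-in scaling. Signs of uncalled members also turned. Spike-in scaling gave Agrn 0.0055, Hspg2 0.16, Itga11 0.10, Itga3 0.041, Itgav 0.069, Itgb1 0.16, Lama5 0.10, Lamb2 0.13, Nid2 0.088 and Sparc 0.18. Median scaling gave Hspg2 0.023, Itgb1 0.023 and Sparc 0.049. Normexp gave Itga7 −0.012 and Sparc 0.050. The slide block gave Itga11 0.092, Itgb1 0.054 and Itgb7 −0.013. With 1 array left out Hspg2 ran over −0.061 to 0.022, Itga11 −0.30 to 0.081, Itgb1 −0.076 to 0.042, Itgb7 −0.0090 to 0.054 and Sparc −0.073 to 0.061. The causes of these changes were not tested.

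Same-numbered samples did not deviate together (correlations −0.12, 0.06 and −0.06 on the VC design and −0.04, 0.00 and −0.06 on the RA design). These values show no pairing by replicate number, and with 3 arrays in a group they cannot exclude one. With a replicate block the RA counts were 5562 and 6422 genes and 17 and 7 members. The number of arrays, 3 in a group, and signal over background limit the precision. This holds most of all for Itga1, Itga2, Itga2b, Itgb6, Itgb8 and the DMSO levels of Itga4, Lama4, Lama2 and Itga11.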

Other observations

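Enzymes and inhibitors that remodel the matrix were measured on both designs. With RA, 9 of 14 genes rose and 2 fell, and 7 rose and 4 fell with median scaling. Over all genes tested, 35.9% rose and 42.1% fell with RA. The plasminogen activator gene Plat measured 2.10, 2.09 and 1.80 on the RA arrays, against −4.87, −4.62 and −4.74 on the DMSO arrays, a difference of 6.74 ± 0.11 (SE, limma adjusted p = 1.4e-07), and it is also 1 of the parietal endoderm markers. Plau, which encodes urokinase, was well above background on no DMSO array and was at least 14.3-fold higher with RA on the main scale (limma adjusted p = 2.2e-07). Plau entered the test through the RA arrays alone. With normexp correction the differences were 4.79 for Plat and 1.73 for Plau. The matrix metalloproteinase gene Mmp11 fell, at −1.73 ± 0.05 (SE, limma adjusted p = 1.04e-06), as did the secreted protease gene Htra1, at −0.45 ± 0.09 (SE, limma adjusted p = 0.00327). With VC, 0 of 13 rose and 5 fell, while 6.59% of all genes tested rose and 10.6% fell. The largest falls were in Adamts9, a secreted metalloproteinase, at −0.69 ± 0.08 (SE, limma adjusted p = 0.00844), and in the metalloproteinase inhibitor Timp3, at −0.58 ± 0.08 (SE, limma adjusted p = 0.0102), and none of the 5 was called with spike-in scaling.

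Vtn was high and Lama2 was well above background on 1 VC array only, and both were chosen after their values were seen. The vitronectin gene Vtn, a ligand of the Itgav receptors, measured −5.83, −6.29 and 0.93 on the VC arrays, against −5.76, −6.43 and −5.51 on the ddH2O arrays, with VC replicate 3 far above the rest. Lama2 measured −8.32, −8.00 and −5.07 on the VC arrays, against −8.24, −8.21 and −8.19 on the ddH2O arrays, highest on VC replicate 3 but still dim on that array. That array was alone on its slide.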
